A study of Solanum lycopersicum x Solanum pennellii and Solanum lycopersicum and Solanum pennellii with 31 samples.

Results

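H06 is a locus of tomato chromosome 8 that lies upstream of a pair of divergent genes, and its M82 and S. pennellii alleles differ in sequence. The small RNAs described here are the distinct sequences of 23-24 nt that matched the S. pennellii allele of H06 and not the M82 allele. They were taken from the 3 tables of H06 reads, by genotype, as every sequence of that size whose matches all lay on the S. pennellii allele. This gave 49 of the 115 distinct H06 sequences. Of the others of 23-24 nt, 28 matched M82 alone and 4 matched both alleles. In the text below, pennellii-only and M82-only stand for these classes.

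The libraries came from the F1 of Solanum lycopersicum cv. M82 and S. pennellii LA0716, from S. pennellii LA0716 itself, and from M82, all grown from seed in compost, from 4 F1 plants and 2 of each parent. Libraries of different tissues may thus share a plant, and no label says whether replicate numbers mark plants. Pollen and flowers were taken at 2 months and leaves at 2 weeks. The F1 had 4 libraries of each tissue and M82 had 2. S. pennellii had 2 libraries of pollen, 2 of leaf and 1 of flower, because 1 further flower column in its table carried a name that matched no sample. The second M82 flower column carries the same misprint of a letter and was read as M82 in the M82 table. Flowers are whole organs that hold pollen, and in such bulk samples fewer cells of a type and less RNA per cell cannot be told apart. The values are reads per library, and the depth of each library was not used here, so a difference in depth enters them in full, and at a count of 0 up to 3 reads are allowed by counting error. No M82 library held a pennellii-only read of 23-24 nt. This cannot check the labels of M82 leaves and flowers, which held no H06 read of 23-24 nt at all. M82 pollen held 1 and 3 such H06 reads. Each M82 flower library also held 1 pennellii-only read of 15-22 nt. S. pennellii pollen replicate 2 held 3 M82-only reads of 23-24 nt, the only ones in its genotype, whose source was not tested.

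In plants, small RNAs of 24 nt are made from double-stranded RNA that RNA polymerase IV and an RNA-dependent RNA polymerase produce together, and a Dicer-like enzyme cuts. They are loaded into Argonaute proteins of the AGO4 clade, several of which favour a 5' adenine, and guide DNA methylation to matching sequence. A read that carries a base found in only 1 parental allele shows which allele it could have come from without mismatch. The alleles of a hybrid can thus be followed in 1 library, as far as the reads come from the locus. The reads here were aligned to the H06 alleles alone, so reads from elsewhere in the genome were not told apart.

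Of the 49 sequences, 40 had reads in 1 library only and 7 in 2 or more, so few could be shared at all. Among these 7, 4 were read in both the F1 and S. pennellii. They are shown because they link the hybrid to its wild parent. Sequences are DNA letters, 5' to 3', named by their first and last base on the S. pennellii allele and by strand, and capitals mark bases that differ from the closest stretch of the M82 allele. M82 bases that are missing from a sequence carry no mark, and where a gap can be placed in several ways 1 placement is shown.
83-106 plus: aaaatcAactattgtctgaagacg
181-204 plus: attccattggcatttcacAcTctt
271-294 plus: gagaTAaaacgagacaaaagtagT
380-403 plus: aGatatgaCaccaaacaaagtaAc
All 4 lay on the plus strand, as did 25 of the 49 sequences.

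The sequence 271-294 plus was the most read of all, with 6 reads. F1 pollen replicate 2 held 2 of them, against 3 in S. pennellii pollen replicate 2 and 1 in the S. pennellii flower library. The sequence 181-204 plus was read in the most libraries, once each in F1 pollen replicates 1 and 2, in S. pennellii pollen replicate 1 and in the S. pennellii flower library. Both were thus present in pollen of either genotype. The sequence 380-403 plus was read in pollen alone, with 2 reads in F1 pollen replicate 2 and 1 in S. pennellii pollen replicate 2. The sequence 83-106 plus had 1 read in F1 leaf replicate 4 and 1 in the S. pennellii flower library. It was the single pennellii-only read of 23-24 nt in any leaf.

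The shared sequences made up 15.4% of the 26 sequences read in the F1 and 16.0% of the 25 read in S. pennellii. They carried 7 of the 38 F1 reads (18.4%) and 8 of the 34 S. pennellii reads (23.5%). Without F1 pollen replicate 2, 2 of 17 F1 sequences were shared. With so few reads per library, a sequence read in 1 genotype alone may be missed in the other at this depth. Of the 49 sequences, 32 had 1 read over all libraries, 9 had 2 and 6 had 3 or more. The last 2, 86-109 plus and 179-201 plus, had reads only in the column that was not used. Within the F1, flowers and pollen shared 1 sequence, 275-298 plus (TAaaacgagacaaaagtagTtagc), with 1 read in flower replicate 1 and 1 in pollen replicate 2. Within S. pennellii they shared 3. One of these, 129-152 minus (agacacaacaaAatcactgacaCt), had 2 reads in the flower library and 1 in pollen replicate 2, and was not read in the F1.

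By position, exact matches included, of the F1 sequences 25 of 26 overlapped an S. pennellii sequence on the allele by at least 1 base, and of the S. pennellii sequences 23 of 25 overlapped an F1 sequence. An overlap of 1 base is easily met where the sequences cover most of the allele, so these counts are a description. Some differed only by a shifted end. In 5 further F1 sequences the 5' end lay within 1 base of that of an S. pennellii sequence on the same strand, and the same held the other way for 3 S. pennellii sequences. The following are shown because the members of each set start 1 base apart or at neighbouring bases, with the genotype that held them.
F1 189-212 minus: aTtggtcgaaGagTgtgaaatgcc
S. pennellii 189-211 minus: TtggtcgaaGagTgtgaaatgcc
F1 151-174 plus: cttTctccAtaTcaatgaCttctt
S. pennellii 152-175 plus: ttTctccAtaTcaatgaCttcttg
F1 422-444 plus: ttttagttCaagtagGGtgtcga
S. pennellii 423-446 plus: tttagttCaagtagGGtgtcgatt
The first of these had 1 read in F1 flower replicate 2 and 2 in F1 flower replicate 4, and was the only sequence read in more than 1 F1 flower library. Its S. pennellii neighbour, shorter by the 5' adenine, had 2 reads in the flower library. The sequence 151-174 plus had 2 reads and 422-444 plus had 3, all in F1 pollen replicate 2. Their neighbours had 1 read each, 152-175 plus in the S. pennellii flower library and 423-446 plus in S. pennellii pollen replicate 1.

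The sequences lay between bases 16 and 466 of an S. pennellii allele of 471 bases, in 6 stretches formed by the 47 sequences with reads, which together covered 77.5% of it. The stretch from 52 to 229 held the most, with 31 of the 47, of which 15 were plus and 16 minus. It held 21 of 38 F1 reads and 23 of 34 S. pennellii reads. The deepest single base, at 192, was covered by 17 reads of both genotypes. The stretch from 380 to 466 held 10 sequences, with 11 F1 reads and 5 S. pennellii reads. The remaining sequences formed a stretch of 3 from 271 to 298 and single sequences at 16-39, 232-255 and 340-363. These stretches were drawn from the reads and were not tested.

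Counts by tissue in the F1 are given for the largest stretches. From 380 to 466, F1 pollen held 2, 7, 1 and 1 reads in replicates 1 to 4, and F1 flowers held 0 in each of 4 libraries. From 52 to 229, F1 pollen held 2, 7, 1 and 2 reads and F1 flowers 2, 2, 0 and 4. In the first stretch every F1 pollen library lay above every F1 flower library, whereas in the second the tissues overlapped. S. pennellii differed from this, because its flower library also held 2 reads from 380 to 466, beside 2 and 1 in its pollen libraries. Without F1 pollen replicate 2, 4 of the 10 F1 pollen reads lay from 380 to 466. Over all stretches F1 flowers held 10 reads and F1 pollen 27, without account of depth. The stretches were drawn from these same reads, and a difference in filling between the tissues was not tested.

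Where the alleles are identical no read can be pennellii-only. Of 364 windows of 24 bases on the S. pennellii allele that could be set against the M82 sequence, 320 (87.9%) were not found in M82. The windows found in M82 began at bases 170 to 175, 217 to 230, 301 to 320 and 403 to 406. Windows that touch bases 61 to 121 were not analysed here. Each sequence was also set against the closest stretch of the M82 allele. The closest stretch differed by 1 base in 11 sequences, by 2 in 9, by 3 in 18, by 4 in 9, and by 5 and 6 in 1 sequence each, counting substitutions and gaps. The sequences that differed by 1 base carried 12 of the 72 reads. One of them, 169-192 plus (Cttcttgtacatattccattggca), with 2 reads in F1 pollen replicate 4, differed from M82 at its 5' base alone.

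For 5 of the 49 sequences a counterpart from the M82 allele, of the same size and strand and with up to 6 substitutions and no gap, was itself read. They are shown because the sequences of each set differ by substitutions alone. Whether they are forms of 1 small RNA was not tested. Capitals mark the bases that differ, and M82 positions are counted on the M82 allele.
S. pennellii allele 83-106 plus: aaaatcAactattgtctgaagacg
M82 allele 84-107 plus: aaaatcTactattgtctgaagacg
S. pennellii allele 120-143 minus: aaAatcactgacaCtaaTgacaag
M82 allele 121-144 minus: aaGatcactgacaAtaaGgacaag
S. pennellii allele 272-295 minus: aActacttttgtctcgtttTAtct
M82 allele 268-291 minus: aCctacttttgtctcgtttCCtct
S. pennellii allele 400-423 plus: taAccaatattgtatttccatgtt
M82 allele 391-414 plus: taGccaatattgtatttccatgtt
The first set differed by T7A and the last by G3A, with the M82 base first and positions counted from 1 at the 5' end. The M82 forms of the first and last sets were read in M82 pollen, once each in replicates 1 and 2. The pennellii form of the last was read once, in F1 pollen replicate 4. The forms 272-295 minus and its M82 counterpart were both read in the same library, F1 flower replicate 3, with 1 read each. The pennellii form 120-143 minus had 2 reads in the S. pennellii flower library, and its M82 form had 1 read in F1 pollen replicate 1. The fifth, 119-141 minus, overlaps it.

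Summed over the sequences, reads were found in pollen and flowers of the F1 and of S. pennellii and in no M82 library. F1 pollen held 4, 17, 3 and 3 reads in replicates 1 to 4, which averaged 6.75 ± 6.85 (SD, n = 4). The 4 flower libraries of the F1 held 3, 2, 1 and 4, or 2.5 ± 1.29 (SD, n = 4), and its leaves 0, 0, 0 and 1, or 0.25 ± 0.50 (SD, n = 4). Pollen lay above every leaf library, while the lowest flower library equalled the highest leaf library. S. pennellii pollen held 8 and 7 reads, its flower library 19 and its leaves 0 and 0. All 6 M82 libraries held 0, which follows largely from the choice of sequences absent from the M82 allele.

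In the F1, the question was whether pennellii-only small RNAs differ between reproductive tissue and leaf. Leaves were taken at 2 weeks and pollen and flowers at 2 months, so tissue and age cannot be told apart against leaves. Pollen exceeded leaves by 6.50 reads per library (two-sided exact permutation test, p = 0.0286, which is the smallest value possible for 4 libraries in each group, Benjamini-Hochberg adjusted p = 0.0857 over 3 tissue comparisons). Flowers exceeded leaves by 2.25 reads (exact permutation test, p = 0.0571, adjusted 0.0857). Pollen stood above flowers by 4.25 reads, within the spread of the libraries (exact permutation test, p = 0.286, adjusted 0.286). None of the 3 passed an adjusted p of 0.05. F1 pollen replicate 2 carried 17 of the 27 pollen reads. Without it the excess of pollen over leaves was 3.08 reads and that over flowers 0.83. When pennellii-only reads of 15-22 nt were added, the adjusted exact permutation p was 0.0429 for both pollen and flowers against leaves, with differences of 9.25 and 3.25 reads. The added reads in F1 flowers numbered 2, 0, 1 and 1, against 1 and 1 in M82 flowers, so that they overlapped M82. With F1 libraries of the same number taken as pairs, the exact p was 0.125 for either tissue against leaves (adjusted 0.1875), the smallest that 4 pairs allow, so that the calls with all sizes rest on libraries taken as unpaired.

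Between genotypes of 1 tissue, no comparison could pass 0.05. M82 does not carry the S. pennellii allele, and the class was chosen as sequences absent from the M82 allele. Few or no reads in M82 thus follow from that choice, and the differences from M82 are a description. F1 pollen exceeded M82 pollen by 6.75 reads and F1 flowers exceeded M82 flowers by 2.5, with no overlap between libraries (two-sided exact permutation test, p = 0.133 each, the smallest that 4 against 2 allow, and 0.600 after adjustment over 9 comparisons). Without F1 pollen replicate 2 the first of these differences was 3.33. S. pennellii pollen exceeded M82 pollen by 7.50 reads (exact permutation test, p = 0.333, the smallest possible, adjusted 0.900). Unlike S. pennellii, the F1 has the S. pennellii allele from 1 parent alone, and reads were not adjusted for allele copies. F1 and S. pennellii pollen overlapped, with a difference of -0.75 reads (exact permutation test, p = 0.8). The sign of this value turned without any 1 of the F1 pollen replicates 1, 3 and 4, where it was 0.17, 0.50 and 0.50, and without F1 pollen replicate 2 it was -4.17. The single S. pennellii flower library, at 19 reads, lay above all F1 flower libraries, a difference of -16.5 for the F1 against S. pennellii. That library has no replicate among the columns used. In leaves the F1 stood 0.25 reads above both S. pennellii and M82, through the 1 read of replicate 4.

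A share within a library does not depend on its depth. Of the F1 reads of 23-24 nt that matched a single allele, those that were pennellii-only made up 40.0%, 81.0%, 75.0% and 60.0% in pollen replicates 1 to 4, against 37.5%, 50.0%, 12.5% and 36.4% in flower replicates 1 to 4. Only pollen replicate 1 lay within the range of the flowers. The mean was 64.0% in pollen and 34.1% in flowers, a difference of 29.9 percentage points (two-sided exact permutation test, p = 0.0571). The pooled counts behind these shares were 27 of 40 in pollen and 10 of 31 in flowers (exact binomial 95% intervals 50.9 to 81.4 and 16.7 to 51.4, counting error only). Without pollen replicate 2 the pooled pollen share was 52.6%. With reads of 24 nt alone the difference of the means was 46.2 points (exact permutation p = 0.0286, the smallest possible), again with libraries taken as unpaired. Among S. pennellii reads that matched a single allele, the share was 100% in pollen replicate 1 and in the flower library and 70.0% in pollen replicate 2.

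Over all reads the first base was A in 27 of 72 (37.5%, exact binomial 95% interval 26.4 to 49.7), T in 22, C in 12 and G in 11. This order did not hold in each group or by distinct sequence. F1 pollen had 9 reads with C, 8 with T and 6 with A, S. pennellii pollen had 6 with G, 5 with T and 4 with A, and A and T each began 18 of the 49 sequences. In F1 pollen 6 of 27 reads began with A (22.2%, interval 8.62 to 42.3) and in F1 flowers 5 of 10 (50.0%, interval 18.7 to 81.3). In S. pennellii the counts were 4 of 15 in pollen (26.7%, interval 7.79 to 55.1) and 11 of 19 in the flower library (57.9%, interval 33.5 to 79.7). The pooled share was thus lower in pollen than in flowers in both genotypes, with overlapping intervals, and the difference was not tested. By library the F1 tissues overlapped. A began 2 of 4, 3 of 17, 1 of 3 and 0 of 3 reads in F1 pollen replicates 1 to 4. In F1 flower replicates 1 to 4 it began 1 of 3, 1 of 2, 1 of 1 and 2 of 4. Without F1 pollen replicate 2 the pooled F1 pollen count was 3 of 10. Reads that began with C were 11 of 38 in the F1 (28.9%, interval 15.4 to 45.9) and 1 of 34 in S. pennellii (2.94%, interval 0.0744 to 15.3). By library they numbered 0, 6, 1 and 2 in F1 pollen, 1, 0, 0 and 1 in F1 flowers, 0 and 0 in S. pennellii pollen and 1 in the S. pennellii flower library. Without F1 pollen replicate 2 they were 5 of 21 F1 reads, and the difference between genotypes was not tested.

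Both strands gave reads. The plus strand held 41 of 72 reads (56.9%, interval 44.7 to 68.6) and 25 of the 49 sequences. It held 19 of 27 reads in F1 pollen and 4 of 10 in F1 flowers, and 10 of 15 in S. pennellii pollen and 7 of 19 in the S. pennellii flower library. Plus and minus sequences overlapped in 79 combinations. An overhang of 2 bases at each 3' end, the form of a Dicer product, was found in 1 of these, and its strands were read in different genotypes, 191-213 plus (catttcacActCttcgaccaAtt) once in F1 flower replicate 4 and 189-211 minus in the S. pennellii flower library. No such combination was thus read within 1 library. Of the 49 sequences 39 were of 24 nt, and these carried 60 of the 72 reads (83.3%). A CG dinucleotide, one of the contexts in which plant DNA is methylated, stood in 20 of the 49 sequences and in 32 of the 72 reads.

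Within the 8 F1 libraries of pollen and flowers, these features of pennellii-only reads were set against those of M82-only reads. The mean share of reads that began with A was 41.8% for pennellii-only and 50.5% for M82-only reads, a difference of -8.75 points, which was below 0 in 4 libraries and above 0 in 2 (two-sided exact paired permutation test, p = 0.594, adjusted 0.891 over 3 features). Without F1 pollen replicate 2 this difference was 1.77. The plus strand held 51.5% and 50.3%, a difference of 1.26 points, above 0 in 4 libraries and below 0 in 2 (exact paired permutation test, p = 0.938, adjusted 0.938). Its sign turned without F1 flower replicate 1, F1 pollen replicate 1 or F1 pollen replicate 2, where it was -0.46, -2.13 and -5.07. Reads of 24 nt made up 85.6% of pennellii-only and 65.1% of M82-only reads, a difference of 20.5 points, above 0 in 4 libraries and below 0 in 3 (exact paired permutation test, p = 0.172, adjusted 0.516). With these reads no difference between the classes was detectable in any of the 3 features, each library counted alike. Pooled F1 shares, leaf included, were not tested. Of 38 pennellii-only and 34 M82-only reads, 12 and 19 began with A and 24 and 13 were plus. Those of 24 nt were 31 and 24. C, not among the features tested, began 11 and 1. F1 pollen replicate 2 gave 17 of the 38 reads.

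Among the other sequences with most reads in a tissue, 147-170 plus (gtgtcttTctccAtaTcaatgaCt) had 2 reads in S. pennellii pollen replicate 1 and 80-103 minus (cttcagacaatagtTgattttAat) had 1 read in F1 flower replicate 1, tied with the other sequences of 1 read in F1 flowers. The second of these overlaps 83-106 plus, on the other strand.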

How the data were processed

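Small RNA libraries of leaf, flower and pollen were made by the authors with a TruSeq kit, and reads were trimmed with Trim Galore! and aligned with Bowtie 1.1.1, allowing no mismatch, to both allelic sequences of H06. The deposited values are raw counts of each matching sequence per library, without the depth of each. Of 24 columns of library values 1, in the S. pennellii table, was not used, since its name matched no sample. Each sequence was counted once per library, and a sequence not listed for a genotype was taken as 0 reads.

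From these, reads of 23-24 nt were summed per library and compared as means in exact permutation tests, with p as 2 times the smaller tail and Benjamini-Hochberg adjustment at a threshold of 0.05 within each family of comparisons. The tests were tested on simulated data. Shares have exact binomial intervals at a level of 95% (scipy 1.17.1), which take in counting error alone, because PCR copies of a molecule are not told apart. The closest stretch of M82 was found by edit distance (edlib). Libraries of 1 tissue and genotype came from separate plants, per the methods.

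The members, the rule for sequences named (read in more than 1 genotype or library, in leaf or M82, by 3 or more reads, or among the 3 most read of a tissue) and the tests were chosen with earlier results of these data known. Sequences printed beside these were chosen after their values were seen. One sequence that the rule names is not reported here. Alternatives were other read sizes, each match or each distinct sequence counted, rank sums, the absolute difference, pollen libraries alone, leaving out each library and a replicate block. The seedling counts were not used here.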

Additional observations from a re-analysis of the deposited data

Results flagged for a closer look

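F1 pollen replicate 2 stood far from the other F1 pollen libraries, with 17 pennellii-only reads of 23-24 nt and 11 distinct sequences. Of these 11 sequences, 4 were also read in another library and 3 of them in S. pennellii. F1 leaf replicate 4 held 1 read of 1 sequence where the other leaf libraries had 0, and a single read among 4 libraries stands apart by construction. Of 8 groups of values looked at, 4 held such a library, but these come from 2 libraries, each by reads and by distinct sequences. The rate of about 1 in 20 by which chance picks out a group is not met by counts this close to 0. Pennellii-only reads of 15-22 nt, which are outside the comparisons above, averaged 2.75 per library in F1 pollen, 2 in S. pennellii pollen and 6 in the S. pennellii flower library, in each case with every library above both M82 libraries of the same tissue, which held 0 in pollen and 1 each in flowers. In F1 flowers they were 2, 0, 1 and 1, not above M82 flowers. M82 lacks the S. pennellii allele, so low counts there follow largely from the choice of class.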

How the results depend on the processing

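Of 194 recomputed values, 182 kept their direction and their side of an adjusted p of 0.05, with a value of 0 counted as kept. The comparisons between genotypes, the replicate block and the features in pollen libraries alone could not pass 0.05. Nor could the F1 tissue and share comparisons with a library left out, where the smallest exact permutation p was 0.0571. For these the side was fixed in advance, so the count is no measure of how firm the results are. With all read sizes the F1 differences from leaves passed it, at 9.25 reads for pollen and 3.25 for flowers. With reads of 24 nt alone the difference in pennellii-only share between F1 pollen and flowers passed it, at 46.2 points. Counting each distinct sequence once turned the plus-strand difference to -2.67 points. The replicate block, over same-numbered libraries, turned the difference between F1 and S. pennellii pollen to 3.00 reads over 2 numbers and changed no call. Tissues of 1 plant may share a number, which no label states and these few reads cannot settle. Taken as departures from the mean of their tissue, same-numbered F1 pollen and flower libraries had correlations from -0.06 to 0.11. By this measure 2 of 4 pollen libraries were closest to the flower library of their number. With each library left out, the difference between F1 and S. pennellii pollen ran from -4.17 to 0.50 reads, that in 5' A share from -20.2 to 1.77 points and that in plus-strand share from -5.07 to 11.0 points. No value could be had without the single S. pennellii flower library, nor a block for its comparisons, nor the 24 nt share from reads of 24 nt alone. The cause of these changes was not tested. Counts of 0 to 19 reads per library limit all values, and the depth of each library was not used here.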
